A study of Mus musculus with 6 samples.

Results

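GABA and glycine are the main inhibitory transmitters of the central nervous system, and 8 genes that make, load, recover and break them down were followed here: Gad1, Gad2, Slc32a1, Slc6a11, Slc6a13, Slc6a5, Slc6a9 and Abat. They were taken by gene symbol from the 24346 rows of the deposited files, and all 8 had a row. In 3 libraries the mouse is labelled miR-124a-1/2 DKO (double knockout), and in 3 it is labelled miR-124a-1+/-, the heterozygous control, so the control animals also lack a copy of miR-124a-1. All are labelled brain at embryonic day 17.5, strain, sex and litter are not among the labels, and the column headers of the DKO files read CKO, which the labels do not explain. Values are FPKM, fragments counted per transcript length and library size, which are per length and so allow levels of different genes to be set side by side.

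GABA is made from glutamate by the glutamate decarboxylases that Gad1 and Gad2 encode. The vesicular transporter encoded by Slc32a1 then loads GABA or glycine into synaptic vesicles. After release the transmitters are taken back across the plasma membrane, GABA by carriers such as Slc6a11 and Slc6a13, glycine by Slc6a9 and Slc6a5, and the mitochondrial GABA transaminase encoded by Abat starts the breakdown of GABA. In the retina the inhibitory neurons are amacrine cells, which release GABA or glycine, and horizontal cells. In the embryonic forebrain GABAergic neurons are marked by the Dlx and Lhx6 transcription factor genes, and glycinergic neurons lie mostly in the hindbrain and spinal cord.

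The promoters of Gad1, Gad2 and Slc32a1, which had higher values in all DKO libraries (below), are shown because these genes share a role and a chromosome. Each window runs from 250 bases before to 50 bases after the RefSeq start (GRCm38.p6, plus strand). The Gad1 window lies inside the gene as annotated in GENCODE M21, which starts upstream of it at 70553072. That upstream start was not searched for motifs. Capitals mark matches on either strand to any of 4 motifs. These are the E-box, spelled CANNTG, and a motif bound by AP-2 factors, spelled GCCNNNGGC. The other 2 are the promoter box spelled TATAAA and a homeodomain motif spelled TAATTA. No matches of different motifs overlap in these windows.
Gad1, chr2:70561879-70562178: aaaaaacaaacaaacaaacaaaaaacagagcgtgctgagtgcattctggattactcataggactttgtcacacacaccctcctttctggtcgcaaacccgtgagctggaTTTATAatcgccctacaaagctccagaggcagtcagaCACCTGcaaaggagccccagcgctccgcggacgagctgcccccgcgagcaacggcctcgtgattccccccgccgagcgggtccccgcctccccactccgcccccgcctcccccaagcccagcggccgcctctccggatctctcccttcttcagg
Gad2, chr2:22622077-22622376: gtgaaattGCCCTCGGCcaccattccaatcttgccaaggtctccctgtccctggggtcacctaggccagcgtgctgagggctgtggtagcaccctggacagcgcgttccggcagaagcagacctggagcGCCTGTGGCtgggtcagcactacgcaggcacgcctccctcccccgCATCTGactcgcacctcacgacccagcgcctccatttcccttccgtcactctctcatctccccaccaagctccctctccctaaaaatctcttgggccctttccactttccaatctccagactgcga
Slc32a1, chr2:158610508-158610807: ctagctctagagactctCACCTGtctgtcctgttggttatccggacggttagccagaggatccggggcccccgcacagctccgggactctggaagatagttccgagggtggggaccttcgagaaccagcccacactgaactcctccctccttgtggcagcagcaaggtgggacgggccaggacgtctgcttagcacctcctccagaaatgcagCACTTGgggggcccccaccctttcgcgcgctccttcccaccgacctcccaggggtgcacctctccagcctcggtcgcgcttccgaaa
Gad1 and Gad2 have 1 E-box each and Slc32a1 has 2, a motif found in 72.3% of the 32851 mouse promoter windows of this length. The AP-2 motif is present in the Gad2 window only among these 3, at 2 places, against 16.6% of all windows with at least 1. The capitals TTTATA in the Gad1 window are that promoter box read on the other strand (13.6% of all windows), and none of the 3 windows holds TAATTA (5.29% of all windows). G and C make up 61.3% of the Gad2 window and 63.3% of the Slc32a1 window, against a median of 52.7%. A match is a string of letters, and no binding was measured. RefSeq promoter windows were matched for 7 of the 8 genes, Abat being the other.

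The marker genes of either group gave little sign of the labelled tissue or of the labelled embryonic age. The summed level of 7 rod photoreceptor genes was 10241 to 11208 FPKM in DKO libraries and 10968 to 11541 FPKM in control libraries, led by Sag, the rod arrestin. The 8 markers of forebrain interneurons and striatum summed to 0.155 to 0.551 FPKM in DKO libraries and 0.478 to 0.587 FPKM in control libraries, with Dlx5, Dlx6, Lhx8 and Gsx2 listed at 0 in all 6. Markers of hindbrain and spinal cord (7 of 7, among them Hoxb4) were listed at 0 throughout. The 5 markers of cortical projection neurons were low but not absent. They summed to 2.75 to 3.26 FPKM in DKO libraries and 2.65 to 2.98 FPKM in control libraries. Tbr1 was the highest of them (0.741 to 1.34 FPKM over all 6 libraries), and Emx1 was listed at 0 in all 6. The 6 genes of dividing cells, among them Mki67, each averaged under 1 FPKM and summed to 1.03 to 1.598 FPKM in DKO libraries and 1.37 to 2.94 FPKM in control libraries. Amacrine cell markers summed to 140 to 145 FPKM in DKO libraries and 127 to 131 FPKM in control libraries, and horizontal cell markers to 86.9 to 88.1 FPKM in DKO libraries and 90.1 to 102 FPKM in control libraries. The host transcripts of the targeted microRNAs did not separate the groups either, since Mir124a-1hg lay at 464 to 510 FPKM in DKO libraries and 420 to 528 FPKM in control libraries, and that of miR-124a-2 (2610100L16Rik) at 69.9 to 98.0 FPKM in DKO libraries and 80.3 to 115 FPKM in control libraries. The groups are therefore named by their labels. In whole tissue, fewer cells of a type and less RNA per cell cannot be told apart.

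The order of the 8 genes by level was nearly the same in every library. Gad1 was highest, with a mean of 116 FPKM over all 6 libraries, above 95.9% of the 13215 rows tested, those averaging 1 FPKM or more. It was followed by Slc6a11 at 90.5 FPKM, Slc6a9 at 72.3 FPKM, Abat at 45.8 FPKM, Slc32a1 at 43.2 FPKM, Gad2 at 14.7 FPKM, Slc6a5 at 5.03 FPKM and Slc6a13 at 1.64 FPKM. Only Abat and Slc32a1 overlapped among neighbours in this order, with Abat the higher in 5 of 6 libraries and the lowest Abat value (43.6 FPKM) under the highest Slc32a1 value (47.3 FPKM). The median tested row had 12.6 FPKM, so 6 of the 8 genes lay above it, and Slc6a13 lay above 5.91% of rows.

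**Figure D1:**
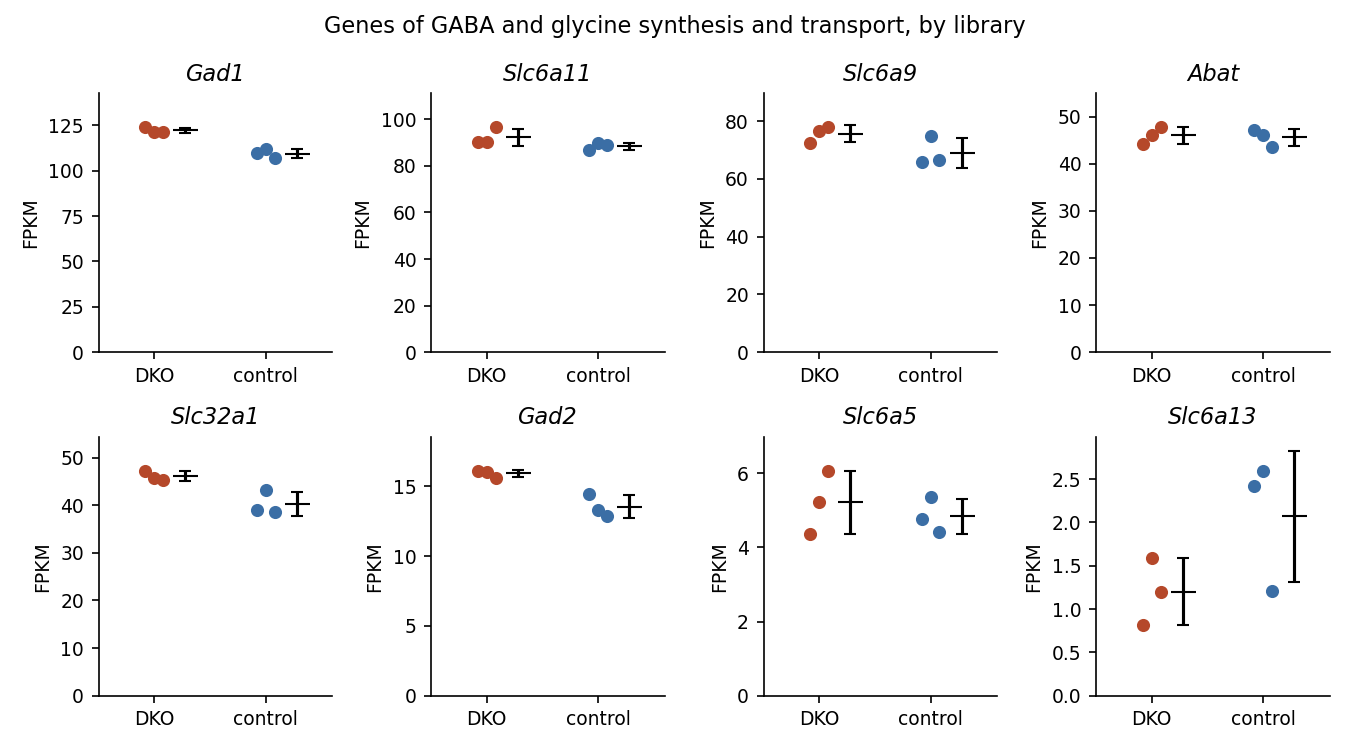
FPKM of each of the 8 genes (vertical axis, each panel from 0) in the 3 DKO and 3 control libraries. Points are libraries, and the bar beside them is the mean with its SD (n = 3). The DKO points of Gad1, Slc32a1, Gad2 and Slc6a11 lie above all control points, while the other 4 genes overlap.

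The genes that make GABA and load it into vesicles had slightly higher values in all 3 DKO libraries than in any control library. Gad1, the more abundant decarboxylase, measured 124, 122 and 121 FPKM in DKO libraries, against 110, 112 and 107 FPKM in control libraries. The groups did not overlap, and the lowest DKO value stood 9.18 FPKM above the highest control value. Its mean was 122 ± 1.53 FPKM in DKO libraries and 110 ± 2.56 FPKM in control libraries (SD, n = 3 each), a difference of 11.6%. On the log2(FPKM + 1) scale, which understates the change of low genes, the fold change was 0.16 with SE 0.04 (95% interval 0.07 to 0.25). The limma fit over all rows gave an unadjusted p = 0.00427 and a Benjamini-Hochberg adjusted p = 0.395, so Gad1 did not pass the threshold of 0.05.

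Gad2, the decarboxylase associated with synaptic vesicles, measured 16.1, 16.03 and 15.6 FPKM in DKO libraries, against 14.5, 13.3 and 12.9 FPKM in control libraries. Again every DKO value was above every control value, here by 1.17 FPKM or more. The mean was 15.9 ± 0.260 FPKM in DKO libraries and 13.6 ± 0.818 FPKM in control libraries (SD, n = 3 each), 17.5% higher in DKO. In limma the log2 fold change was 0.22, SE 0.06 (unadjusted p = 0.00828, Benjamini-Hochberg adjusted p = 0.467).

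Slc32a1, the vesicular transporter of GABA and glycine, measured 47.3, 45.7 and 45.3 FPKM in DKO libraries, against 39.1, 43.2 and 38.5 FPKM in control libraries. These groups did not overlap either, with control replicate 2 nearest to the DKO values. Its mean was 46.1 ± 1.04 FPKM in DKO libraries and 40.3 ± 2.57 FPKM in control libraries (SD, n = 3 each). In limma this was a log2 fold change of 0.19, SE 0.06 (unadjusted p = 0.00912, Benjamini-Hochberg adjusted p = 0.480). Over the 16 alternative settings and left-out libraries, the log2 fold changes stayed between 0.14 and 0.18 for Gad1, 0.19 and 0.26 for Gad2 and 0.16 and 0.24 for Slc32a1, and none of the 3 genes passed in any of them.

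The GABA carriers Slc6a11 and Slc6a13 had log2 fold changes of opposite sign, each with a 95% interval that included 0. Slc6a11, the more abundant, which glial cells and some neurons carry, measured 90.4, 90.2 and 96.6 FPKM in DKO libraries, against 86.8, 89.6 and 89.0 FPKM in control libraries. The groups were apart by 0.573 FPKM only, less than the SD of either (3.64 FPKM in DKO and 1.48 FPKM in control libraries, n = 3 each). The fold change, 0.06 on the log2 scale, had a 95% interval of -0.04 to 0.16 (limma, Benjamini-Hochberg adjusted p = 0.778), and it was 0.03 without DKO replicate 3, the library with the highest value.

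Slc6a13, a GABA carrier known from the meninges and from liver and kidney, measured 0.814, 1.59 and 1.20 FPKM in DKO libraries, against 2.41, 2.60 and 1.20 FPKM in control libraries. Control replicates 1 and 2 were above every DKO value, and control replicate 3 lay among them. Its log2 fold change of -0.46 had a 95% interval of -0.97 to 0.04 (limma, Benjamini-Hochberg adjusted p = 0.663). From the size of the smallest steps between low values, these levels stand for about 12 to 40 fragments per library, against 2506 to 3598 for Gad1, so Slc6a13 is measured far less precisely. The 8 markers of meninges and fibroblasts, which could carry Slc6a13, summed to 3.73 to 5.85 FPKM in DKO libraries and 5.17 to 6.38 FPKM in control libraries. Among them Slc13a4, a sulfate carrier of the meninges, had 0.358 ± 0.154 FPKM in DKO libraries and 0.969 ± 0.343 FPKM in control libraries (SD, n = 3 each), without overlap. Foxc1, a transcription factor of the meninges, had 0.228 ± 0.0143 FPKM in DKO libraries and 0.443 ± 0.142 FPKM in control libraries (SD, n = 3 each), also without overlap. Col1a1, a fibroblast collagen gene, was likewise lower without overlap, at 0.114 ± 0.0177 FPKM in DKO libraries and 0.195 ± 0.0484 FPKM in control libraries (SD, n = 3 each), while Aldh1a2 was higher, up to 0.170 FPKM in DKO libraries and listed at 0 in control libraries. Dcn, Lum and Ogn overlapped between the groups. Dcn averaged 0.122 FPKM in DKO and 0.0546 FPKM in control libraries, Lum 0 and 0.0246 FPKM, and Ogn 0.151 and 0.381 FPKM. Of the 8 markers only Col1a2 reached the level for testing, with a log2 fold change of -0.01. The other 7 averaged under 1 FPKM, below Slc6a13, so they are measured imprecisely. The share of rows this low without overlap was not counted. The part of these markers in the Slc6a13 values was not tested.

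Of the glycine carriers, Slc6a9 was the more abundant by far. Slc6a9, which glia and, in the retina, glycinergic amacrine cells carry, measured 72.4, 76.6 and 77.9 FPKM in DKO libraries, against 65.7, 74.8 and 66.4 FPKM in control libraries. Control replicate 2 fell within the DKO range, while the other control libraries lay below it. The mean was 75.6 ± 2.88 FPKM in DKO libraries and 69.0 ± 5.07 FPKM in control libraries (SD, n = 3 each), with a log2 fold change of 0.13 and SE 0.06 (limma, unadjusted p = 0.0612, Benjamini-Hochberg adjusted p = 0.656). Slc6a5, the carrier of glycinergic neurons in brain stem and spinal cord, measured 4.37, 5.23 and 6.07 FPKM in DKO libraries, against 4.76, 5.35 and 4.41 FPKM in control libraries. Its groups overlapped fully, and its log2 fold change of 0.09 (95% interval -0.19 to 0.37, limma, Benjamini-Hochberg adjusted p = 0.911) became -0.011 without DKO replicate 3.

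Abat, the transaminase that removes GABA, had the same level in both groups within their spread. It measured 44.2, 46.2 and 47.8 FPKM in DKO libraries, against 47.2, 46.1 and 43.6 FPKM in control libraries. The means were 46.0 ± 1.81 FPKM in DKO libraries and 45.6 ± 1.86 FPKM in control libraries (SD, n = 3 each). The log2 fold change was 0.01, with a 95% interval of -0.11 to 0.13 (limma, Benjamini-Hochberg adjusted p = 0.967), and the sign was negative without DKO replicate 3 (-0.013) and without control replicate 3 (-0.019).

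**Figure D2:**
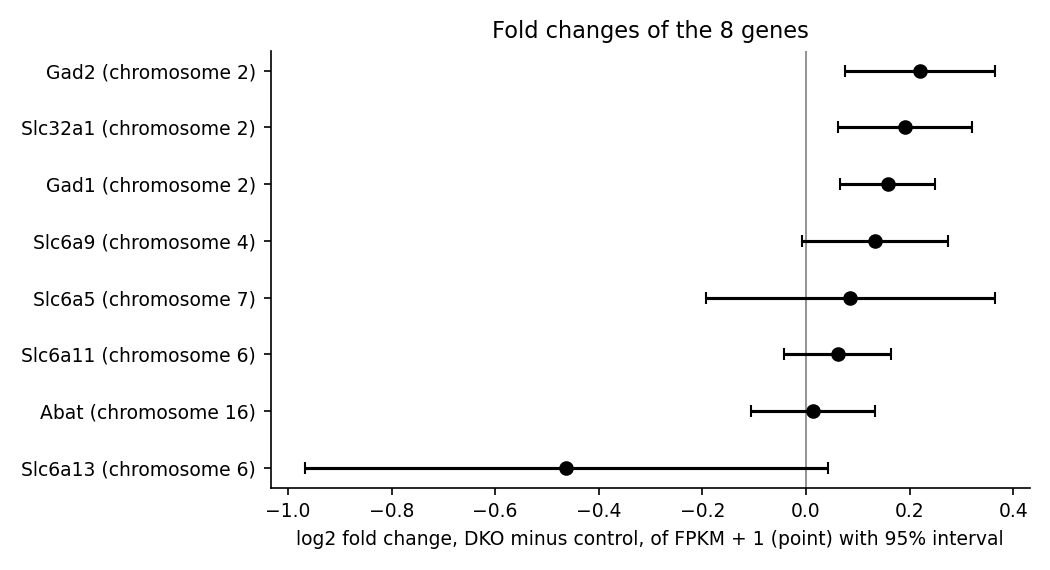
Log2 fold change of FPKM + 1, DKO minus control, for the 8 genes (points) with the 95% interval of the limma fit (bars), with the chromosome of each gene. The intervals of Gad2, Slc32a1 and Gad1, all on chromosome 2, lie above 0, and those of the other 5 genes include 0.

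In all, 0 of the 8 genes passed the adjusted threshold in limma, as did 3 of the 13215 tested rows (0.0227%), 2 of them higher in DKO libraries (0.0151%). At an unadjusted p under 0.05 in limma there were 3 of the 8, all higher in DKO libraries, against 7.88% of all tested rows in either direction, 3.52% with DKO higher and 4.36% with DKO lower. The same 3 genes were under 0.01, as were 2.02% of all rows, 0.802% with DKO higher. The groups did not overlap for 4 of the 8, all with DKO higher, against 13.9% of all rows, 6.96% of all rows with DKO higher and 6.95% with DKO lower. The log2 fold change was above 0 for 7 of the 8 with a median of 0.11, where 6537 of the 13215 rows were above 0 and the median was -0.0016. These 8 genes were chosen with earlier results of these data known, so the counts describe them and test nothing. An exact 2-sided permutation of the library labels (20 arrangements) gave p = 0.1 for Gad1, Gad2, Slc32a1 and Slc6a11, the smallest that 3 against 3 can give, and 0.2 to 0.7 for the others.

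Ratios within a library do not depend on scaling between libraries, and those among the genes of synthesis and loading overlapped between the groups. Gad2 stood at 0.130, 0.132 and 0.129 of Gad1 in DKO libraries and at 0.132, 0.119 and 0.120 in control libraries. Slc32a1 relative to the sum of Gad1 and Gad2 was 0.337, 0.332 and 0.331 in DKO libraries and 0.315, 0.345 and 0.321 in control libraries. Control libraries lay on both sides of the DKO values in each ratio, with log2 differences of 0.08 and 0.03 (exact permutation p = 0.4 and 0.5, adjusted 0.6 each over 6 ratios). Omitting each library in turn gave 0.05 (without control replicate 2) to 0.12 (without control replicate 1) for Gad2 over Gad1, and 0.0022 (without control replicate 1) to 0.07 (without control replicate 2) for Slc32a1 over the decarboxylases. Abat relative to the decarboxylases was 0.315, 0.336 and 0.349 in DKO libraries and 0.380, 0.367 and 0.364 in control libraries. This was the 1 ratio of the 6 without overlap, lower in DKO by a log2 difference of -0.15 (exact permutation p = 0.1, adjusted p = 0.4, where 0.1 is the smallest possible). Slc6a11 relative to the decarboxylases averaged 0.669 ± 0.0325 in DKO libraries and 0.719 ± 0.0219 in control libraries (SD, n = 3 each), with overlap. Slc6a9 relative to Slc32a1 averaged 1.64 ± 0.0986 in DKO libraries and 1.71 ± 0.0262 in control libraries, and Slc6a5 relative to Slc6a9 0.0688 ± 0.00880 in DKO and 0.0701 ± 0.00327 in control libraries (SD, n = 3 each), both with overlap.

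Gad1, Gad2 and Slc32a1 all lie on mouse chromosome 2 and far from each other (GRCm38: Gad2 at 22622205 to 22693874, Gad1 at 70553072 to 70602014 and Slc32a1 at 158610767 to 158615748, all on the plus strand). Chromosome 2 had a larger share of rows of small p than any other chromosome with at least 100 tested rows. An unadjusted p under 0.05 in limma was reached by 129 of its 1037 tested rows (12.4%), 55 of them higher and 74 lower in DKO libraries, against 7.47% of the 12068 rows on other chromosomes. The groups did not overlap for 19.0% of chromosome 2 rows and 13.5% of rows elsewhere. The median log2 fold change of chromosome 2 rows was -0.0051 and that of the others -0.0016, and a median does not show rows that differ in both directions. Whether position has a part in the values of the 3 genes was not tested.

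Rows without overlap between the groups were about as common near the 3 genes as among all tested rows (13.9%). They were less common there than on chromosome 2 as a whole (19.0%). Within 5 Mb they were 7 of 46 near Gad1 (15.2%), with 1 higher and 6 lower in DKO libraries. Near Gad2 they were 13 of 100, with 7 higher and 6 lower, and near Slc32a1 13 of 88 (14.8%), with 6 higher and 7 lower. An unadjusted p under 0.05 in limma was reached by 7.88% of all rows and 12.4% of chromosome 2 rows. Near Gad1 there were 4 of 46 (8.70%), all lower. There were 6 of 100 near Gad2, 3 in each direction, and 5 of 88 near Slc32a1 (5.68%), 3 higher and 2 lower. No difference between these windows was tested. Each window leaves out the gene itself, which the shares over all rows and over chromosome 2 include. The nearest tested row to Gad1, Gorasp2, a Golgi stacking protein gene that lies 59562 bases downstream, had 46.0 ± 1.59 FPKM in DKO libraries and 52.3 ± 0.360 FPKM in control libraries (SD, n = 3 each), without overlap and opposite to Gad1. The next, Tlk1, a kinase gene, was also lower without overlap (17.2 ± 1.74 FPKM in DKO and 19.7 ± 0.596 FPKM in control libraries, SD, n = 3 each). Gad1os, an antisense transcript that overlaps Gad1, was listed at 0 in 5 libraries and at 0.192 FPKM in control replicate 3. Next to Gad2, Pdss1 and Abi1 overlapped between the groups, with log2 fold changes of 0.04 and -0.0041.

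Around Slc32a1 the nearest rows had the same direction as the gene. Gm14204, a noncoding transcript on the opposite strand that starts within the promoter window shown above, 44 bases upstream of Slc32a1, measured 15.4, 13.2 and 15.3 FPKM in DKO libraries, against 12.3, 9.92 and 13.0 FPKM in control libraries. The groups did not overlap, although DKO replicate 2 and control replicate 3 were close (0.30 on the log2 scale, Benjamini-Hochberg adjusted p = 0.572 in limma). Actr5, a chromatin remodelling subunit gene 9140 bases downstream, had 7.64 ± 0.762 FPKM in DKO libraries and 6.61 ± 0.190 FPKM in control libraries (SD, n = 3 each), without overlap. The lowest DKO value (6.77 FPKM) and the highest control value (6.74 FPKM) were apart by less than the SD of either group. The log2 fold change of Actr5, 0.18, had a 95% interval of -0.02 to 0.38 (limma, Benjamini-Hochberg adjusted p = 0.677). These neighbours were named by distance, a rule set after the values were seen.

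**Figure D3:**
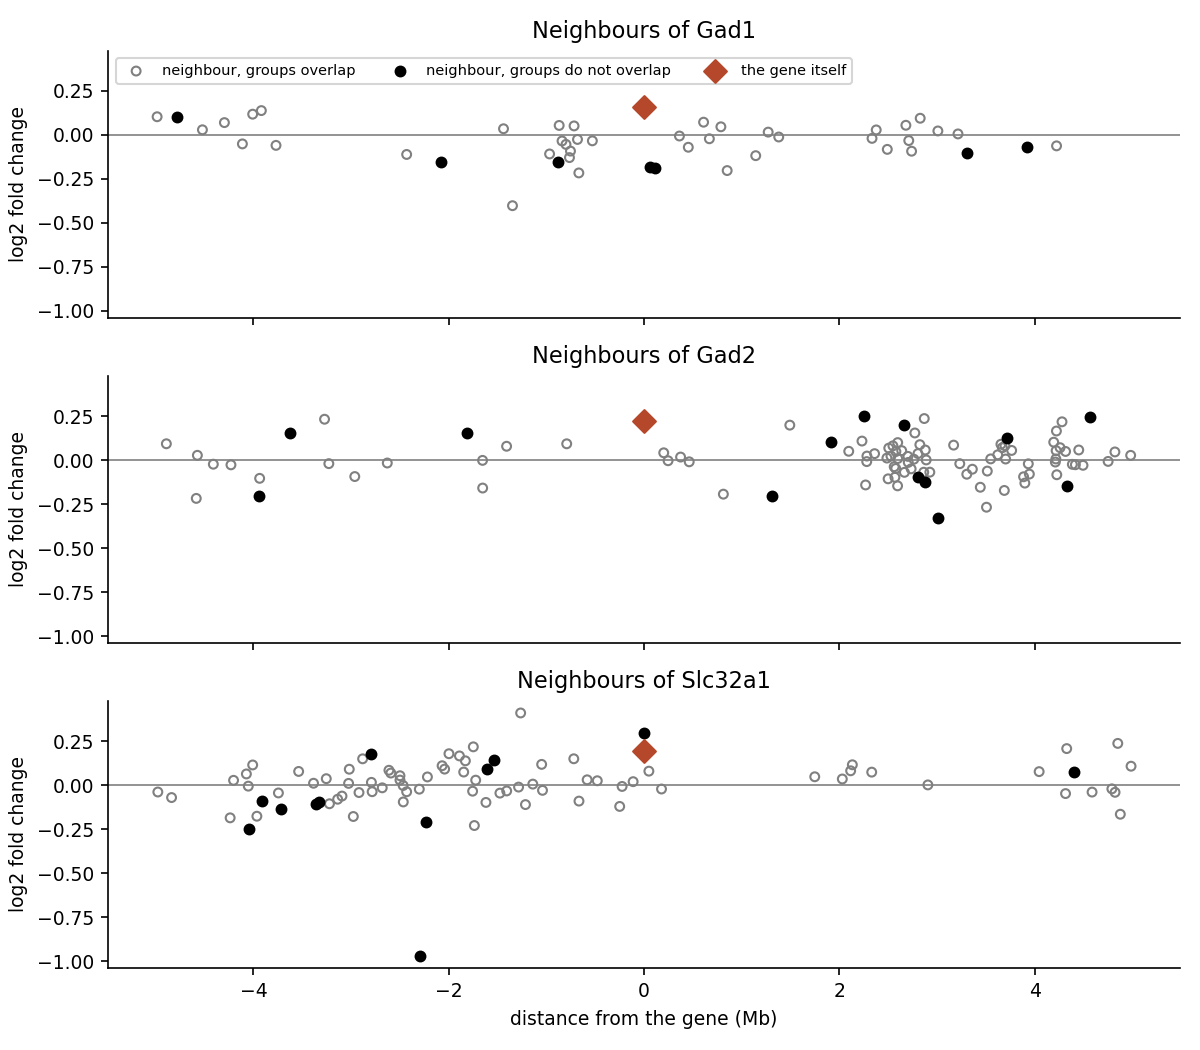
Log2 fold change of FPKM + 1, DKO minus control (vertical axis), of tested rows within 5 Mb of Gad1, Gad2 and Slc32a1 against their distance from the gene in Mb. The diamond is the gene itself, filled points are rows whose groups do not overlap and open points the rest. The 2 rows nearest to Gad1 lie below 0, and the 2 filled rows beside Slc32a1 (one under the diamond) lie above 0.

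The summed amacrine markers, higher in all 3 DKO libraries than in any control library, rested on the Tfap2 genes. Without Tfap2b the sum was 69.6 to 71.0 FPKM in DKO libraries and 66.3 to 69.9 FPKM in control libraries, with overlap. Without Tfap2a, Tfap2b and Tfap2c it was lower in DKO libraries, at 39.4 to 41.3 FPKM, against 42.9 to 44.3 FPKM in control libraries. These sums were added after the values were seen. Of the 8 amacrine markers, 7 were tested, 0 passed the adjusted threshold in limma, and 4 reached an unadjusted p under 0.05 (limma; 7.88% of all rows), 3 higher and 1 lower. Without overlap, the transcription factor genes Tfap2a, Tfap2b and Tfap2c were higher in DKO libraries, Tfap2b at 72.8 ± 2.08 FPKM in DKO and 60.9 ± 0.127 FPKM in control libraries (SD, n = 3 each) and a log2 fold change of 0.25. Prdm13, a factor needed for a subset of amacrine cells, was lower, at 9.14 ± 0.625 FPKM in DKO libraries and 11.2 ± 0.417 FPKM in control libraries (SD, n = 3 each), without overlap. Ebf3, a factor of glycinergic amacrine cells, was at 15.3 ± 0.0822 FPKM in DKO libraries and 15.1 ± 0.175 FPKM in control libraries (SD, n = 3 each), without overlap but apart by less than the SD of either group, and with a log2 fold change of 0.02. Neurod2 and Barhl2 had log2 fold changes of -0.13 and -0.15 with overlap. Ptf1a, which acts in precursors, was near 0 in all libraries (up to 0.0898 FPKM).

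Horizontal cell markers had 1 of 5 log2 fold changes above 0 and a median of -0.06, and their lower sum in DKO libraries rested on Calb1. Without it the other 4 summed to 60.3 to 61.4 FPKM in DKO libraries and 57.1 to 64.8 FPKM in control libraries, with overlap, a sum also added after the values were seen. Calb1, a calcium-binding protein gene of horizontal and some amacrine cells, measured 26.6 ± 0.401 FPKM in DKO libraries and 33.8 ± 3.09 FPKM in control libraries (SD, n = 3 each), and Lhx1 3.81 ± 0.254 FPKM in DKO and 4.72 ± 0.280 FPKM in control libraries (SD, n = 3 each), both without overlap. Onecut1, a transcription factor gene, had a log2 fold change of 0.22, at 3.51 ± 0.231 FPKM in DKO libraries and 2.89 ± 0.418 FPKM in control libraries (SD, n = 3 each), with overlap. Prox1, the most abundant of the 5, was at -0.0051 and Onecut2 at -0.06 on the log2 scale, also with overlap. For Müller glia, which carry GABA and glycine transporters, 4 of 6 markers were above 0 with a median log2 fold change of 0.02. In limma 0 had an unadjusted p under 0.05 (7.88% of all rows). The groups overlapped for all 6, where 13.9% of all rows did not overlap. Of 4 astrocyte markers 3 were tested, 1 above 0 and 2 below. Aldh1l1 was lower without overlap, at 5.86 ± 0.255 FPKM in DKO and 6.72 ± 0.224 FPKM in control libraries (SD, n = 3 each). Gfap, Aqp4 and Fgfr3 overlapped, with Gfap highest in control replicate 3 (36.2 FPKM). The part of cell composition in the values of the 8 genes was not tested.

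**Figure D4:**
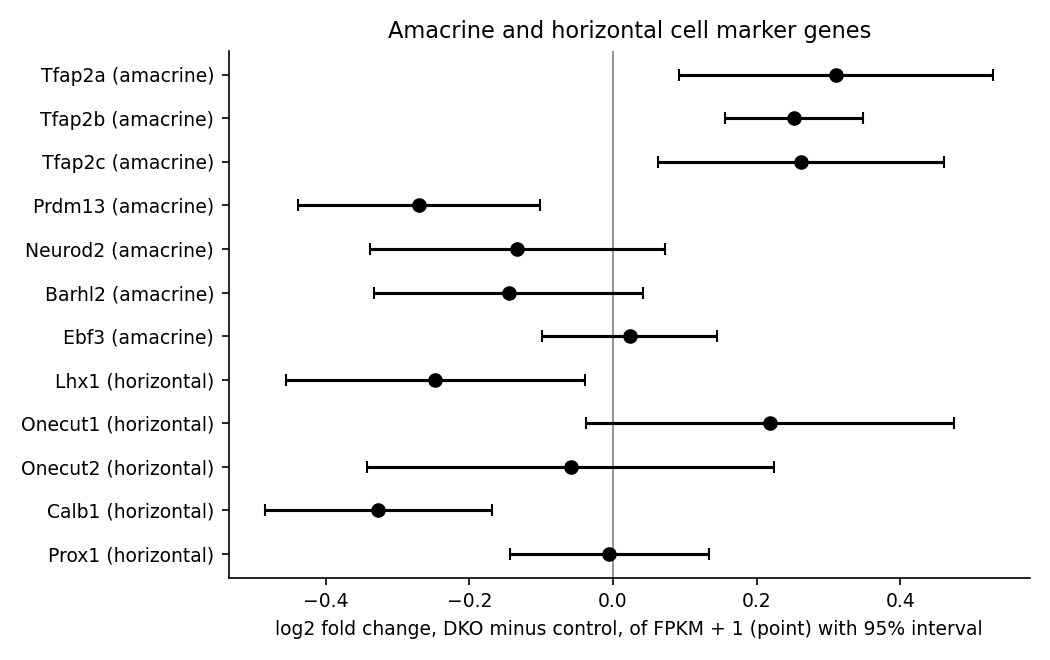
Log2 fold change of FPKM + 1, DKO minus control (points), with 95% intervals of the limma fit (bars), for the 7 amacrine and 5 horizontal cell markers that were tested. The intervals of the 3 Tfap2 genes lie above 0, those of Prdm13, Lhx1 and Calb1 lie below 0, and those of the other 6 include 0.

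Genes that feed or surround this pathway lay on both sides of 0. Of 31 related genes, all had a row and 27 were tested, with 13 log2 fold changes above 0, 14 below and a median of -0.00025. In limma 0 of them passed the adjusted threshold and 2 reached an unadjusted p under 0.05 (7.41%, against 7.88% of all tested rows). The groups did not overlap for 6 of the 27 (22.2%, against 13.9% of all rows), 2 higher and 4 lower in DKO libraries. Slc6a6, the taurine transporter, measured 248, 264 and 263 FPKM in DKO libraries, against 278, 285 and 286 FPKM in control libraries. All DKO values were below all control values, with a log2 fold change of -0.13 and SE 0.04 (limma, Benjamini-Hochberg adjusted p = 0.550). Slc6a7, a proline transporter, measured 5.88, 5.87 and 5.27 FPKM in DKO libraries, against 4.44, 4.90 and 4.88 FPKM in control libraries, without overlap (0.22 on the log2 scale, Benjamini-Hochberg adjusted p = 0.601 in limma). Slc6a12, a carrier of betaine and GABA, and Slc6a17, a vesicular amino acid carrier, had log2 fold changes of 0.10 and 0.04 with overlap. Slc6a8, the creatine carrier, and Slc6a15, a carrier of neutral amino acids, were at -0.02 and -0.03, also with overlap.

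In GABA breakdown and cofactor supply, Aldh5a1, which oxidises the product of Abat, had a log2 fold change of 0.05 with overlap. Aldh9a1, an aldehyde dehydrogenase that can make GABA from another precursor, was lower without overlap, at 14.3 ± 0.682 FPKM in DKO libraries and 15.5 ± 0.816 FPKM in control libraries (SD, n = 3 each). In glutamine and glutamate supply, 4 of 8 genes were above 0. Slc38a1, a glutamine transporter of neurons, had 50.4 ± 0.538 FPKM in DKO libraries and 47.5 ± 1.62 FPKM in control libraries, and Glud1, glutamate dehydrogenase, 34.2 ± 0.665 FPKM in DKO and 36.2 ± 1.17 FPKM in control libraries (SD, n = 3 each), both without overlap. Glul, the glutamine synthetase of glia, reached 893 to 1070 FPKM and overlapped between the groups. The log2 fold changes of the glutamine carriers Slc38a2 and Slc38a5 were -0.03 and 0.06, with overlap. In glycine and serine metabolism 9 of 10 genes were tested and 3 were above 0, and Dld, a subunit of the glycine cleavage system and of other mitochondrial complexes, was lower without overlap (53.2 ± 0.583 FPKM in DKO and 56.0 ± 0.996 FPKM in control libraries, SD, n = 3 each). Gldc, the glycine decarboxylase of that system, had 16.6 ± 0.570 FPKM in DKO libraries and 16.5 ± 1.18 FPKM in control libraries (SD, n = 3 each), and its partners Amt and Gcsh had log2 fold changes of 0.0037 and -0.09 with overlap. For the serine synthesis enzymes Psph and Psat1 they were 0.20 and -0.13, again with overlap.

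The 7 bases GTGCCTT, which pair with positions 2 to 8 of miR-124-3p, were not found in the longest annotated 3' untranslated region of any of the 8 genes. These regions ran from 317 bases in Slc6a13 to 4432 bases in Slc6a5, and among 12168 tested genes with such a region 16.1% held the 7 bases. The search says only that these letters are not in these windows.

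Rows were sought whose profile over the 6 libraries was nearest to the mean profile of Gad1, Gad2 and Slc32a1. The search covered the 10068 rows that averaged 5 FPKM or more, with the 8 genes left out. Likeness was the root mean square difference of log2(FPKM + 1) values centred on each row's mean, with a median of 0.13 over all rows. The 5 nearest were Mmp24, a membrane metalloproteinase gene (0.0098), Creb3l2 (0.018), Galnt9 (0.026), Numa1 (0.026) and Fnbp1 (0.026). Gad1, Gad2 and Slc32a1 had higher values in all DKO libraries, so rows nearest to their mean profile are higher there by construction. Mmp24 and Fnbp1 also lie on chromosome 2, and Mmp24 is within 5 Mb of Slc32a1. Chromosome 2 holds 1037 of the 13105 tested rows that were matched to a chromosome. Its share of the 10068 rows searched was not counted, and a link between likeness and position was not tested. Nearest to Slc6a9 were Trap1, Ece1, Ift172, Fam120b and Cacng3, at 0.020 to 0.031. Among the 8 genes themselves the closest pair was Gad1 and Slc32a1, at 0.040.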

How the data were processed

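Brain RNA, per the labels' protocols, was extracted with TRIzol and made into TruSeq stranded mRNA libraries, 3 per group. The authors deposited 1 file per library with a gene symbol and an FPKM value, per the file headers. Per the submitters' processing notes, the build was mm10, and Cuffdiff 2.2.1, Bowtie2 and TopHat2 2.1.1 were used. Annotation, strand setting, filters and scaling were not given in the sources used here. Read totals are unknown. Ratios between low values gave relative depths of 0.956 to 1.24, and with transcript lengths about 6350000 to 8220000 fragments per library, an estimate.

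The 13215 rows averaging 1 FPKM or more entered a single limma 3.58.1 fit (R 4.3.3) of log2(FPKM + 1) values (eBayes with a trend, Benjamini-Hochberg over all rows, threshold 0.05), checked on simulated data. The simulated log2 changes were larger than those of the 8 genes, so this check does not cover changes of their size. Python 3.11.15 with SciPy 1.17.1 gave 2-sided exact permutation tests. Nothing says that the libraries came from separate litters, so p-values measure the spread between these samples. The 8 genes and all lists were chosen with earlier results of these data known. Genes named from the pathway list are the 3 of smallest p in each direction per part of it (1 where fewer than 5 genes were tested), except 1 that is not reported here. Marker and neighbour genes were named after their values were seen. Positions and transcripts came from GENCODE M21 (GRCm38, the assembly of mm10), promoters from RefSeq (GRCm38.p6). Alternatives were pseudocounts, filters, scalings, eBayes options, the replicate block and leaving out each library.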

Additional observations from a re-analysis of the deposited data

How the results depend on the processing

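The 8 genes missed the adjusted threshold of limma in all 16 alternatives (15 for Slc6a13, which a mean of at least 5 FPKM removes). The number of rows past the threshold, 3, was 1 with eBayes without a trend and ranged over 1 to 4 on omitting each library in turn (1 without control replicate 2), and the cause was not tested. Without single libraries, Slc6a5 lay between -0.011 and 0.19, Abat between -0.019 and 0.042, and the log2 difference of Slc6a5 over Slc6a9 between -0.13 and 0.058, so these 3 changed sign. Slc6a9 over Slc32a1 kept its sign, between -0.10 and -0.01. Gad1, Gad2, Slc32a1, Slc6a9 and Slc6a11 stayed above 0 and Slc6a13 below 0 in every alternative run. Slc6a9 reached an unadjusted limma p under 0.05 in 5 of 16 alternatives, among them without control replicate 2 (log2 fold change 0.19, Benjamini-Hochberg adjusted p = 0.574). Slc6a13 was at -0.71 with a pseudocount of 0.1, and between -0.69 without control replicate 3 and -0.33 without DKO replicate 1. Groups of Gad1, Gad2, Slc32a1 and Slc6a11 stayed apart under median-of-ratios scaling and after short RNA rows (1.76% to 6.36% of the sums, most in control replicate 3) were removed and libraries rescaled. The replicate block left 2 rows past the threshold and gave limma adjusted p of 0.394 for Gad1, 0.414 for Gad2 and 0.430 for Slc32a1. Libraries that share a number had deviations correlated at 0.072, 0.0063 and 0.10, and DKO replicate 2 correlated best with control replicate 1, so the numbers were not taken to pair the libraries. Depth limits Slc6a13 (about 12 to 40 fragments per library) and Slc6a5 (205 to 322) most.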
